A study of Mus musculus with 12 samples.

Results

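The 41 genes described here code for the enzymes that make, use and recycle glutathione, for the thioredoxin, peroxiredoxin, superoxide dismutase and catalase systems, and for NRF2 (Nfe2l2), KEAP1 and a set of NRF2 target enzymes. They were taken by gene symbol from a list, drawn up with earlier results of these data known, out of 23282 entries in the count data, and all 41 were listed and passed the filter on low counts. Skin RNA of 12 male C57BL/6J mice of wild-type genotype, 5 weeks old at the start, was compared. The AD mice (5) received normal chow and the HF + AD mice (7, labelled AD+OB) a high-fat diet with 60 kcal% fat (D12492), begun 4 weeks before the lesions were induced and given for 10 weeks in total. In both groups AD-like lesions were induced on the dorsal skin with 0.5% 2,4-dinitrochlorobenzene (DNCB) in acetone and olive oil, 3 times a week for 6 weeks. Both groups thus carried the DNCB lesion and differed in diet, and sham mice were not analysed here, so that no value below says how a gene responded to DNCB itself. The RNA was taken from whole skin, with 1 library per mouse.

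Glutathione is a tripeptide thiol that cells keep in the reduced form with NADPH. Glutathione S-transferases couple it to electrophiles, and DNCB, the hapten used here, is the textbook substrate of these enzymes. Glutathione peroxidases and peroxiredoxins remove peroxides at the expense of glutathione and thioredoxin, whereas catalase splits hydrogen peroxide in peroxisomes without a thiol donor. NRF2 is the transcription factor that drives many of these genes when electrophiles modify its inhibitor KEAP1, and keratinocytes are a classical cell type for this response.

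Each library holds reads from the 3′ ends of mRNAs, and the reads counted on genes numbered 9746937 to 11688979 in the AD libraries and 10726845 to 13462434 in the HF + AD libraries. Levels are given as CPM, the reads of a gene scaled to the same total in every library. Since a 3′ library yields a read per transcript end, CPM values were not divided by gene length and are compared between genes on that scale only. A count of 0 allows up to 3 counts, or up to 0.308 CPM in an AD library and up to 0.280 CPM in an HF + AD library, a limit that covers counting error alone. Genes with any read numbered 13100 to 15063 in the AD libraries and 15522 to 16677 in the HF + AD libraries, ranges that did not overlap. In AD mouse 1 the summed level of the neutrophil marker list was 3698 CPM, against 202 to 356 CPM in the other AD mice. That list shares S100a8 and S100a9 with the hyperproliferative epidermis list, so that its sum need not come from neutrophils. The hyperproliferative list was also highest in AD mouse 1, with 24190 CPM against 7179 to 9707 CPM in the other AD mice. The part of these library differences in the results below was not tested.

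The members did not move as a block. Cat, Cbr1, Gsr and Sod2 were lower in the HF + AD group and Gstm1 was higher, and the other 36 members did not pass the test (edgeR, adjusted p under 0.05). The 5 called members are 12.2% of 41, beside 9.2% of all 14163 genes tested. By direction, 1 member was higher (2.44%, beside 4.43% of all genes) and 4 were lower (9.76%, beside 4.77% of all genes). At an unadjusted p under 0.05 there were 10 members, 4 higher and 6 lower (24.4%, beside 25.1% of all genes). The log2 fold change of HF + AD against AD was above 0 in 22 members and below 0 in 19, with a median of 0.016, beside 0.023 over all genes. It ranged from -1.36 in Gsta3 to 1.21 in Gstm1. The counts and the median of the members thus lay near those of all genes, and what follows concerns single enzymes.

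**Figure D1:**
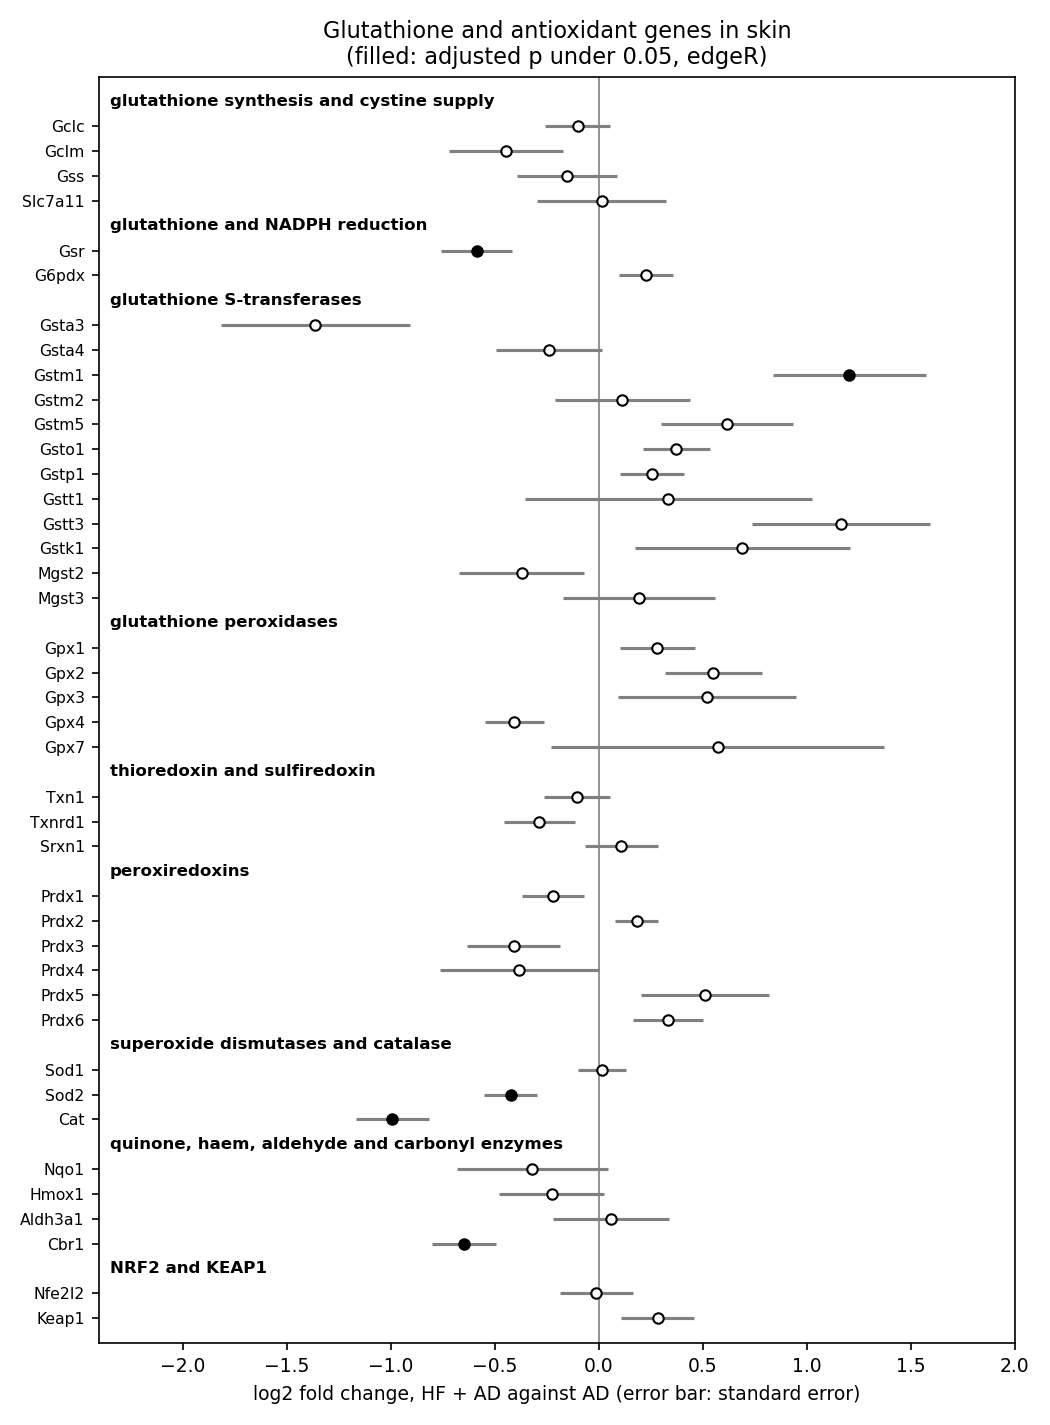
Log2 fold change of HF + AD (7 mice) against AD (5 mice) for each of the 41 members, grouped by role, with the standard error as a bar and filled points for members with an adjusted p under 0.05 in edgeR. The filled points are Gsr, Sod2, Cat and Cbr1 to the left of 0 and Gstm1 to the right, and the open points lie on both sides of 0.

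Catalase showed the clearest difference among the members. Cat (chr2:103453849-103485160, GRCm38, minus strand) lay at 85.0, 69.2, 68.3, 43.8 and 54.8 CPM in AD mice 1 to 5, and between 26.3 and 39.6 CPM (median 30.4) in the HF + AD mice. All 7 HF + AD mice lay below all 5 AD mice. The mean was 64.2 ± 15.6 CPM (SD, n = 5) against 32.3 ± 4.65 CPM (SD, n = 7), which is 1.99-fold lower (log2 fold change -0.99, SE 0.18, edgeR adjusted p = 0.00631). The two-sided exact permutation test gave p = 0.00126, the smallest that the 792 splits of the mice can give, and 0.0337 after adjustment over all genes. The call held when any single mouse was left out, with an adjusted p between 0.00559 and 0.0162. In these whole-skin samples fewer cells of a type and less RNA per cell cannot be told apart.

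The dismutases that make hydrogen peroxide from superoxide differed from each other in their values. Sod2 (chr17:13006846-13040063), the mitochondrial enzyme, lay at 239.6, 248, 279, 269 and 227 CPM in the AD mice and between 148 and 232 CPM (median 190.5) in the HF + AD mice. In 6 of 7 HF + AD mice it was below every AD mouse, and HF + AD mouse 5 lay among them. It was 1.34-fold lower (log2 fold change -0.42, SE 0.13, edgeR adjusted p = 0.0466, exact permutation p = 0.00505, adjusted 0.0556). This call was near the threshold and was kept when AD mouse 5 or HF + AD mouse 5 was left out, and lost when any of the other 10 mice was, with an adjusted p of at most 0.0982. Sod1, the cytosolic enzyme, had a log2 fold change of 0.02 (SE 0.12), with 160.0 to 191 CPM in AD and 156 to 221 CPM in HF + AD mice. Whether Sod2 and Sod1 differed in their response was not tested. The summed level of Sod1, Sod2 and Cat lay between 468 and 536 CPM in AD mice and between 339 and 441 CPM in HF + AD mice, without overlap. This sum holds the called genes Sod2 and Cat and is no separate result. The sums of the other member roles overlapped between the groups.

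Cbr1 (chr16:93605853-93610505), the cytosolic carbonyl reductase that uses NADPH to reduce quinones and lipid aldehydes, was the other member whose call held whichever single mouse was left out. It lay at 239, 321, 266, 259.6 and 265 CPM in the AD mice and between 125 and 249.8 CPM (median 166) in the HF + AD mice. In 6 of 7 HF + AD mice it was below every AD mouse, HF + AD mouse 5 again being the exception. It was 1.57-fold lower (log2 fold change -0.65, SE 0.15, edgeR adjusted p = 0.0166, exact permutation p = 0.00505, adjusted 0.0556). Leaving out any single mouse kept the adjusted p between 0.00500 and 0.0476. The other enzymes of this role, Nqo1 for quinones, Hmox1 for haem and Aldh3a1 for aldehydes, did not pass the test. Of them Nqo1, a standard NRF2 target, lay between 4.24 and 15.6 CPM in AD and between 5.99 and 14.1 CPM in HF + AD mice (log2 fold change -0.32, SE 0.36).

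Gsr (chr8:33652523-33698163), glutathione reductase, returns oxidised glutathione to its reduced form. It lay at 37.7, 65.1, 66.3, 47.2 and 48.6 CPM in the AD mice and between 31.1 and 40.8 CPM (median 35.9) in the HF + AD mice. In 5 of 7 HF + AD mice it was below every AD mouse, and AD mouse 1 was the AD mouse that overlapped. It was 1.5-fold lower (log2 fold change -0.59, SE 0.17, edgeR adjusted p = 0.0402, exact permutation p = 0.00379, adjusted 0.0497). The call was kept without AD mouse 1 or HF + AD mouse 3, 5 or 7 and lost without any of the other 8 mice, with an adjusted p of at most 0.0949. G6pdx, which supplies NADPH through the pentose phosphate pathway, was between 119.7 and 157 CPM in AD and between 135 and 202 CPM in HF + AD mice (log2 fold change 0.23, SE 0.13, adjusted p = 0.294).

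**Figure D2:**
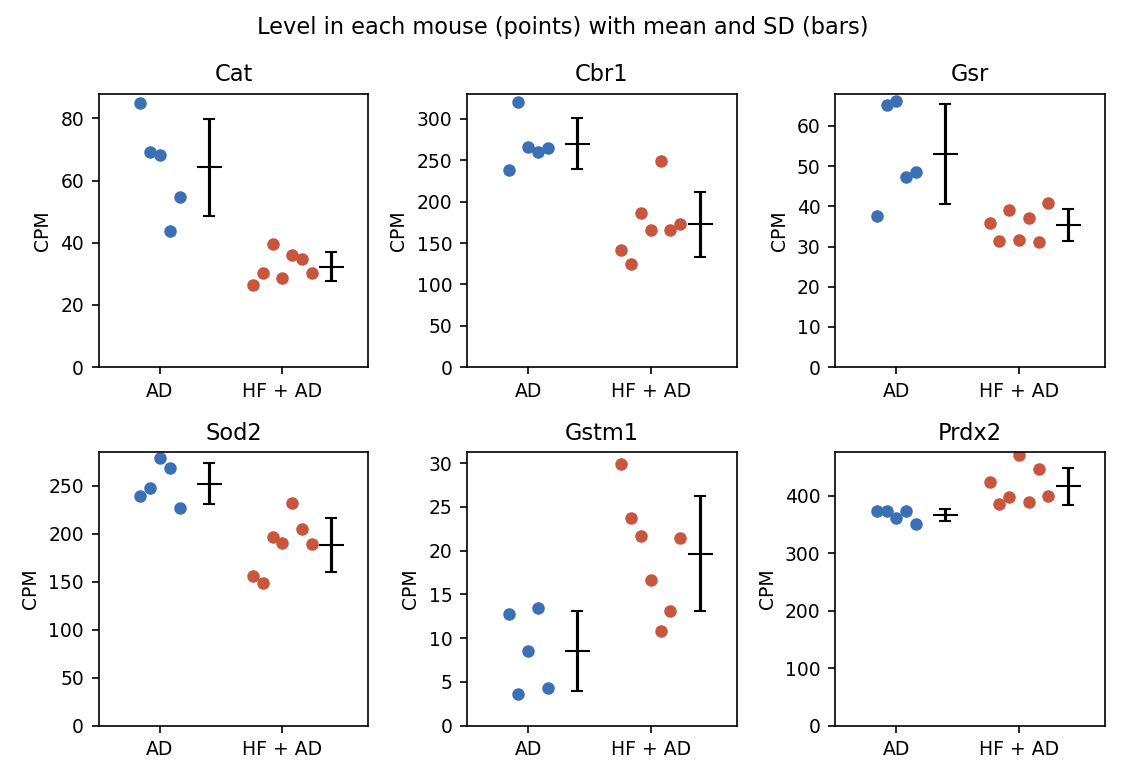
CPM in each AD mouse (left, 5 points) and HF + AD mouse (right, 7 points) for Cat, Cbr1, Gsr, Sod2, Gstm1 and Prdx2, with the mean and SD beside the points and axes that start at 0. The groups are separate in Cat and in Prdx2, where all 7 HF + AD mice lie below and above the AD mice, and overlap by 1 or a few mice in the other panels.

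The 12 glutathione S-transferases had 1 call. Gstm1 (chr3:108012255-108017973), a mu-class transferase, lay at 12.8, 3.62, 8.48, 13.4 and 4.25 CPM in the AD mice and between 10.9 and 29.9 CPM (median 21.5) in the HF + AD mice. In 5 of 7 HF + AD mice it was above every AD mouse. It was 2.31-fold higher (log2 fold change 1.21, SE 0.37, edgeR adjusted p = 0.0494, exact permutation p = 0.00758, adjusted 0.0665). The lowest count in an AD mouse was 35 reads, so that counting error adds to the spread there. The call was kept without HF + AD mouse 5 or 1 of AD mice 1 and 4, and lost without any of the other 9 mice, with an adjusted p of at most 0.115.

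Of the 12 transferases 9 had a log2 fold change above 0 and the median was 0.29, with no call beside Gstm1. Gsta3, an alpha-class transferase, had the lowest value of any member, -1.36 (SE 0.45, adjusted p = 0.0691), with 3.53 to 19.3 CPM in AD and 2.03 to 8.0 CPM in HF + AD mice. Gstt3, of the theta class, lay between 12.7 and 19.4 CPM in the HF + AD mice, and in the AD mice at 21.2 CPM in mouse 5 and between 3.08 and 5.39 CPM in the other 4. Without AD mouse 5 its log2 fold change went from 1.17 to 2.03 and it passed the test (adjusted p = 0.00411 against 0.0971 with all mice). Gsta4, the most abundant transferase of the list by mean CPM, lay between 123 and 283 CPM in AD and between 86.8 and 254 CPM in HF + AD mice. For Gstp1, 91.2% of the 50-base windows in the last 400 transcript bases also occur in Gstp2, so that its level could include reads of that copy.

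None of the 5 glutathione peroxidases passed the test, although 4 had a log2 fold change above 0. Gpx4, which reduces phospholipid hydroperoxides in membranes, had the smallest p of this role and lay between 60.6 and 93.1 CPM in AD and between 49.2 and 69.8 CPM in HF + AD mice (log2 fold change -0.41, SE 0.14, adjusted p = 0.0831). Without AD mouse 4, whose level was the lowest of the AD group, it passed the test (adjusted p = 0.0413). Its last transcript bases are shared with Gpx4-ps2 in 85.8% of windows, so that the assignment of reads is uncertain. Gpx2, an epithelial form, had a log2 fold change of 0.55 (SE 0.23, adjusted p = 0.145). Gpx3, the secreted form, varied most among the HF + AD mice of this role, with levels from 11.5 to 101 CPM.

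Glutathione synthesis showed no call. Gclc and Gclm, the catalytic and modifier subunits of glutamate-cysteine ligase, had log2 fold changes of -0.10 (SE 0.15) and -0.45 (SE 0.28), and Gss, glutathione synthetase, one of -0.15 (SE 0.24). The HF + AD mice lay between 107 and 177 CPM in Gclc, inside the AD range of 112 to 187 CPM but for 1 mouse. Slc7a11, the light chain of the cystine and glutamate exchanger, lay at 75.5, 24.9, 34.7, 15.2 and 18.9 CPM in the AD mice and between 27.2 and 40.4 CPM in the HF + AD mice. AD mouse 1 was thus above every other mouse, and the log2 fold change was 0.01 (SE 0.31) with all mice and 0.55 without AD mouse 1. Gclm passed the test without that mouse (adjusted p = 0.0493, against 0.339 with all mice).

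The thioredoxin and peroxiredoxin members included the most abundant genes of the list and no call. By mean CPM over the 12 mice the 5 highest members were Txn1 (412), Prdx2 (395), Prdx1 (365), Gpx1 (221) and Sod2 (215). Txn1, thioredoxin, had a log2 fold change of -0.11 (SE 0.16), Txnrd1, its reductase, one of -0.29 (SE 0.17, adjusted p = 0.320), and Srxn1, which repairs hyperoxidised peroxiredoxins, one of 0.11 (SE 0.18). Prdx2 (chr8:84969587-84974834), a cytosolic peroxiredoxin, lay at 374, 373, 360.4, 373 and 350.3 CPM in the AD mice and between 385 and 469.8 CPM (median 400.1) in the HF + AD mice. The lowest HF + AD mouse was above the highest AD mouse, by a small step, with a log2 fold change of 0.18 (SE 0.10). It did not pass edgeR's test (adjusted p = 0.289), and its exact permutation p was 0.00631 (0.0616 adjusted). Prdx2 and Cat were the 2 members (4.88%) whose groups did not overlap, beside 5.46% of all genes.

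Prdx2 shares 3′ bases with the antisense gene Junb in 36.2% of the 50-base windows, and whether the counting used strand is not given in the sources used here. Junb, an AP-1 subunit, was itself lower in the HF + AD group (log2 fold change -0.53, SE 0.14, adjusted p = 0.0269). Reads of the pair may not be separable where they overlap. Prdx6, the peroxiredoxin with a single active cysteine, had the smallest p of the role (log2 fold change 0.33, SE 0.17, adjusted p = 0.229). It lay between 168 and 199 CPM in the HF + AD mice, and in the AD mice at 234 CPM in mouse 1 and between 113 and 159 CPM in the other 4. Without AD mouse 1 Prdx6 and Prdx5 passed the test as higher (adjusted p = 0.0146 and 0.0451). Prdx3, the mitochondrial form, had a log2 fold change of -0.41 (SE 0.22, adjusted p = 0.275).

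The regulators themselves showed no call. Nfe2l2 lay at 156, 152, 135, 199 and 80.2 CPM in the AD mice and between 115 and 174 CPM in the HF + AD mice, with a log2 fold change of -0.01 (SE 0.18). Keap1 lay between 34.7 and 58.5 CPM in AD and between 41.9 and 71.0 CPM in HF + AD mice, with a log2 fold change of 0.28 (SE 0.18). NRF2 activity is set mainly by protein stability, which mRNA counts do not measure.

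**Figure D3:**
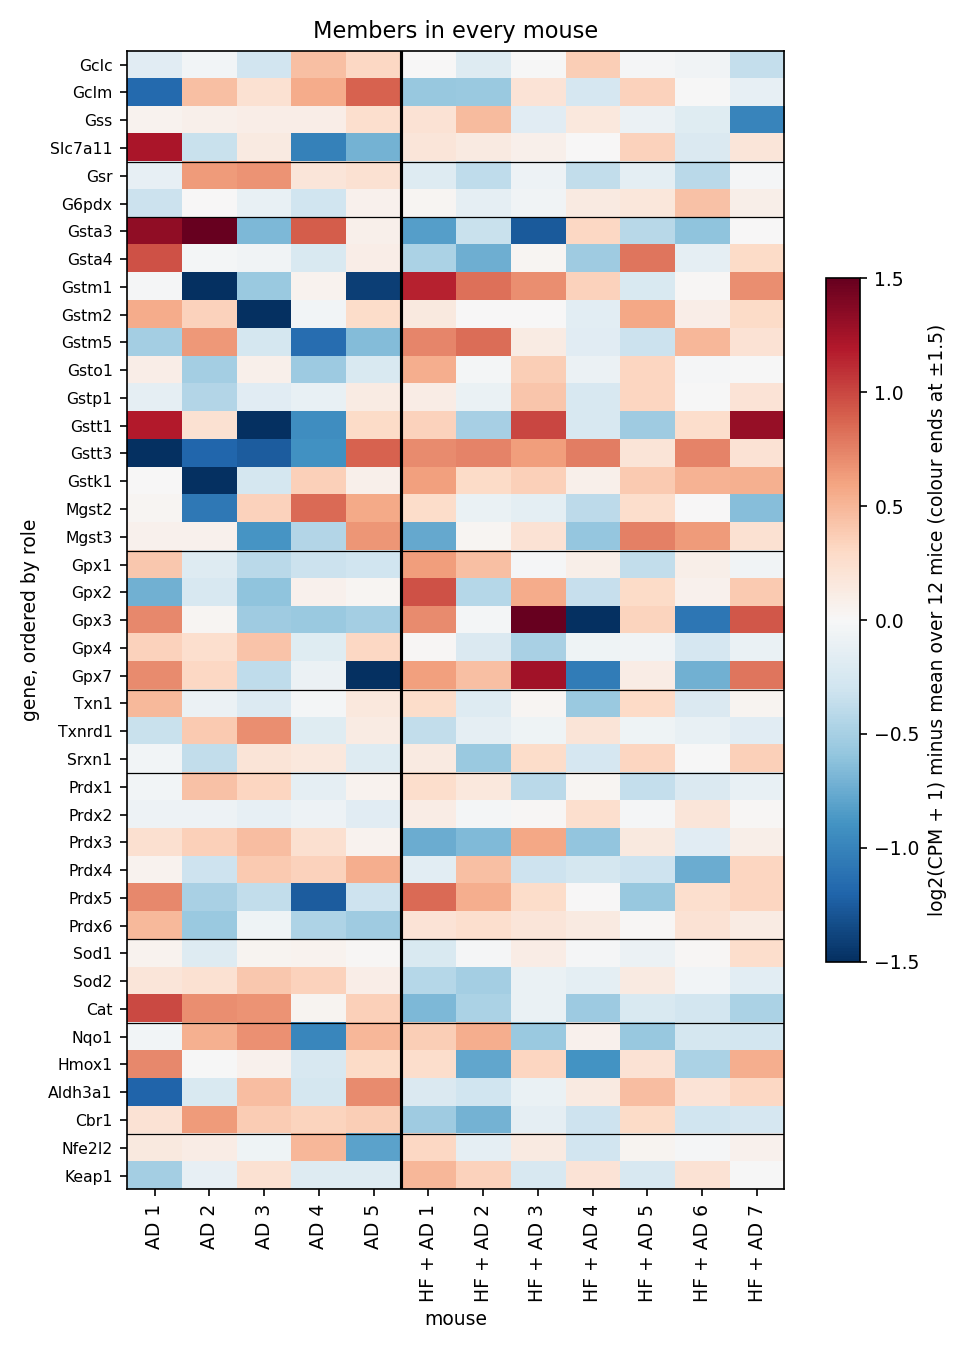
Log2(CPM + 1) of each member in each of the 12 mice, minus the gene's mean over all mice, with genes ordered by role, AD mice left of the vertical line and the colour scale ending at 1.5 on either side. The row of Cat is red to near white in the AD mice and blue to near white in the HF + AD mice. Rows such as Gsta4, Gpx3 and Hmox1 vary within each group.

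Mice of a group differed from one another in these genes. The coefficient of variation (SD over mean) was larger in the AD than in the HF + AD group for 24 of 41 members (58.5%), beside 79.8% of all genes, with a median over members of 26.9% and 20.2%. AD mouse 1 had the highest AD level in 15 members and the lowest in 10. The steadiest members were Prdx2 in the AD group (2.86%) and Prdx6 in the HF + AD group (5.36%), and Gstt3 in the AD group had the largest value, 101%. Over the 7 HF + AD mice, the members whose log2 levels were most like Cat were Prdx3 (Pearson r = 0.867), Gclm (0.861), Mgst3 (0.790), Sod2 (0.669) and Cbr1 (0.627). Negative values were as large, with -0.933 in Prdx1, -0.821 in Keap1 and -0.805 in Nqo1. These values describe 7 libraries, which share their depth and cell make-up across genes.

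Beyond the members, 81 further names of the same pathways, a list likewise drawn up with earlier results known, were looked up, of which 80 were listed and 75 tested. Of these 11 passed the test (14.7%, beside 9.2% of all genes), 6 higher and 5 lower, and 9 had groups that did not overlap (12%, beside 5.46%). Chac1, the cyclotransferase that breaks glutathione down inside the cell, lay at 23.0, 35.9, 35.7, 27.7 and 56.8 CPM in the AD mice and between 78.1 and 134 CPM (median 103) in the HF + AD mice. It was 2.85-fold higher (log2 fold change 1.51, SE 0.21, edgeR adjusted p = 0.00252), with every HF + AD mouse above the highest AD mouse. Slc3a2, the heavy chain that pairs with Slc7a11 and with other amino acid transporters, lay at 30.4, 43.3, 32.7, 40.5 and 56.0 CPM in the AD mice and between 61.4 and 184 CPM (median 81.6) in the HF + AD mice. It too was higher in every HF + AD mouse than in any AD mouse, by 2.52-fold (log2 fold change 1.33, SE 0.27, adjusted p = 0.00866). Both calls held without any single mouse, with adjusted p of at most 0.00962 and 0.0271. Slc3a2 was called and its partner Slc7a11 was not, and the difference between the pair was not tested.

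The other 4 genes that were higher code for enzymes of detoxification and repair. Hmox2, the constitutive haem oxygenase, was 2.57-fold higher (adjusted p = 0.0161), with 10.1 to 35.8 CPM in AD and 33.4 to 78.9 CPM in HF + AD mice. Cbr2, a further carbonyl reductase, was 2.56-fold higher (edgeR adjusted p = 0.00833). It lay between 16 and 38.4 CPM in AD and between 35.7 and 104 CPM in HF + AD mice. These ranges overlapped by 1 HF + AD mouse in each gene. Ephx1, microsomal epoxide hydrolase, was 2.75-fold higher (adjusted p = 0.0251) and Msrb1, a selenoprotein that repairs oxidised methionine, 1.77-fold higher (adjusted p = 0.0179), both without overlap. Leaving out 1 of AD mice 3 and 4 or of HF + AD mice 1 and 2 ended the call of Ephx1, with an adjusted p of at most 0.0596.

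Among the genes that were lower, Me1, the cytosolic malic enzyme that supplies NADPH for fatty acid synthesis and for reduction of thiols, stood first. It lay at 259.8, 233, 307, 189.6 and 188 CPM in the AD mice and between 94.9 and 184 CPM (median 119) in the HF + AD mice, 1.84-fold lower (log2 fold change -0.88, SE 0.18, adjusted p = 0.0101) and without overlap. The call held without any single mouse (adjusted p of at most 0.0299). Gpx8, a peroxidase of the endoplasmic reticulum, was 1.80-fold lower (adjusted p = 0.0368) and Blvra, biliverdin reductase, 1.47-fold lower (adjusted p = 0.0360), both without overlap. Hagh, the glyoxalase that releases glutathione from its lactoyl conjugate, was 1.60-fold lower (adjusted p = 0.0331), and the remaining call was Abcc4, an exporter of conjugates (log2 fold change -0.80, adjusted p = 0.0442). Hagh, Blvra and Gpx8 each lost the call without any of 7 mice, which in all 3 included AD mice 1 and 2 and HF + AD mice 1, 2, 4 and 6, and kept it without the other 5, with adjusted p of at most 0.0821, 0.0763 and 0.0870. Abcc4 kept it only without AD mouse 4 or HF + AD mouse 5 (adjusted p of at most 0.0972 otherwise).

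**Figure D4:**
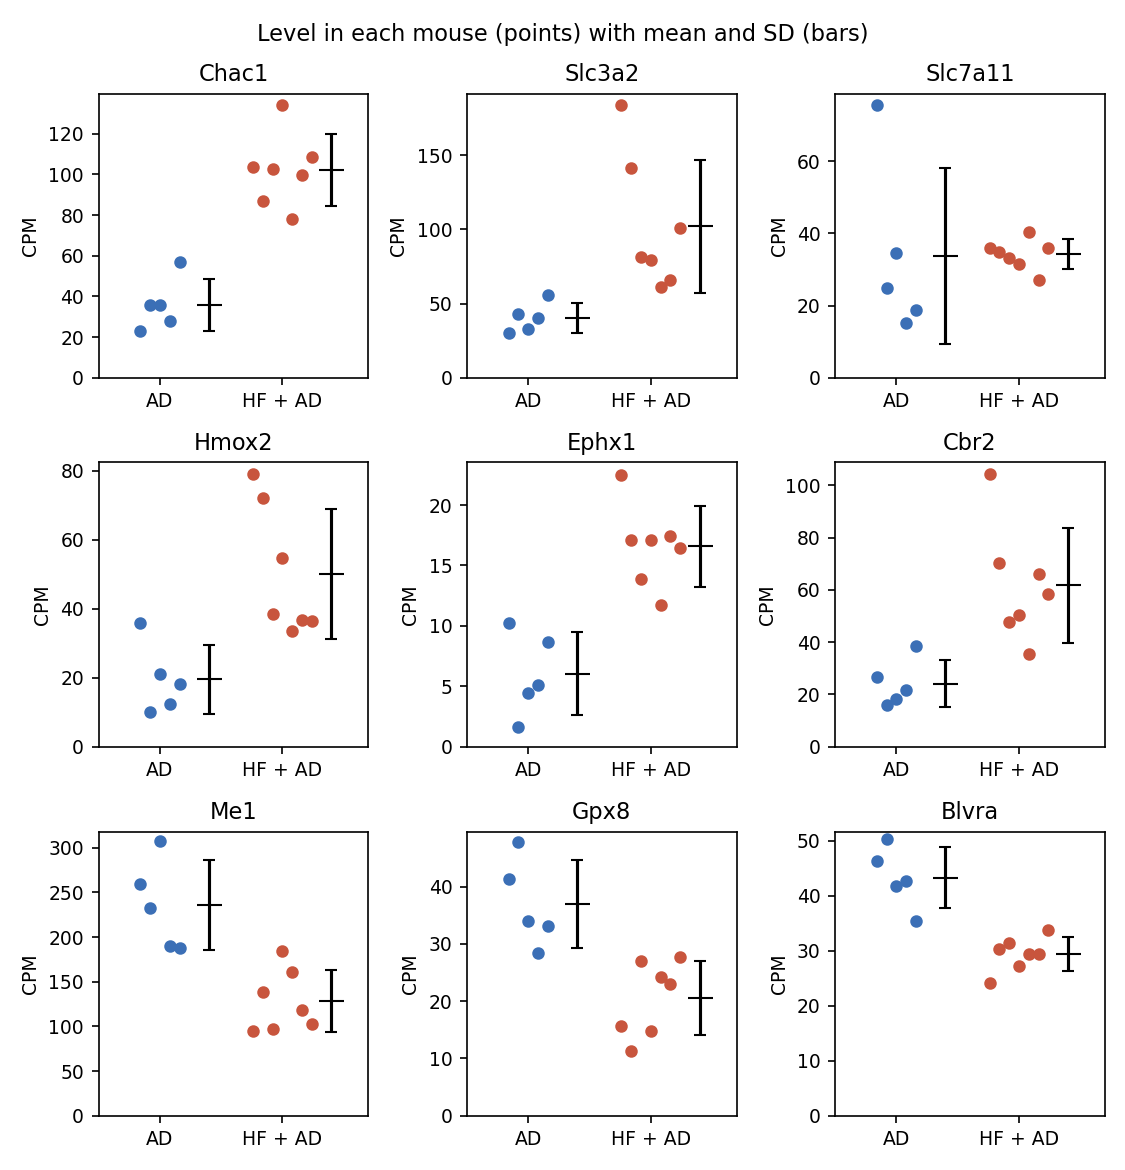
CPM in each AD mouse (left) and HF + AD mouse (right) for 8 further pathway genes and for the member Slc7a11, with mean and SD beside the points and axes that start at 0. Chac1, Slc3a2 and Ephx1 are higher and Me1, Gpx8 and Blvra lower in every HF + AD mouse than in any AD mouse, Hmox2 and Cbr2 overlap by 1 mouse, and Slc7a11 has AD mouse 1 far above the rest.

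The promoters of 4 of these genes are shown, since Chac1 rose and Me1 fell while Slc7a11 and Prdx1 did not pass the test. The windows are 300 bases around the annotated start, 5′ to 3′ on the gene's strand, from RefSeq on GRCm38.p6. Capitals mark matches on either strand of TGATGNAA, the core of the element bound by the stress factor ATF4 with C/EBP partners, in Slc7a11 (chr3:50443564-50443863, minus strand) and Chac1 (chr2:119350992-119351291, plus strand), and of TGACNNNGC, the core of the antioxidant response element bound by NRF2, in Prdx1 (chr4:116685349-116685648, plus strand) and Me1 (chr9:86695865-86696164, minus strand).
Slc7a11: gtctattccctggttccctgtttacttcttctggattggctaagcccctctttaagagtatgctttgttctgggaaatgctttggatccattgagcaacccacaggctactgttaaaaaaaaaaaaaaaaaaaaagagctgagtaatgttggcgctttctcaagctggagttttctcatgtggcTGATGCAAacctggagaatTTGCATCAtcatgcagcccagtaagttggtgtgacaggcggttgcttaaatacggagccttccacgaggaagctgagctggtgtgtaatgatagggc
Chac1: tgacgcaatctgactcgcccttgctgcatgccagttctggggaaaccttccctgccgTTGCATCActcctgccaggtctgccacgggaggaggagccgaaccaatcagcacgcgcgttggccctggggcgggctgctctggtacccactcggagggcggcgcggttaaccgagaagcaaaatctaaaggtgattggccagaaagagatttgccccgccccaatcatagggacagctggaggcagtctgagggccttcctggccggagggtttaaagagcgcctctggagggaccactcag
Prdx1: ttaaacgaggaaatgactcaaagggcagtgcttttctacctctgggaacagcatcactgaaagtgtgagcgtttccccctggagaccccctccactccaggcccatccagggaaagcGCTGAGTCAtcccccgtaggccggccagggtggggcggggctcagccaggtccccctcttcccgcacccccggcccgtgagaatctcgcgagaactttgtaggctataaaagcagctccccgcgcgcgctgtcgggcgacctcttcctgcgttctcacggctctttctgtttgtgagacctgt
Me1: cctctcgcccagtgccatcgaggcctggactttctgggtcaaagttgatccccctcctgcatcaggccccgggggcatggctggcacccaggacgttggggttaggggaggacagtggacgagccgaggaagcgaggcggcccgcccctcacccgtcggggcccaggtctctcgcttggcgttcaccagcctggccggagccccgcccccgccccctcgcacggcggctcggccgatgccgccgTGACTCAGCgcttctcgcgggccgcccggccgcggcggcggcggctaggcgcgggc

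The antioxidant response core occurred in 14% of 27025 genes with a promoter window. It was found in 9 of the 35 members that have one (25.7%). The members were chosen to include NRF2 target enzymes, so that a larger share was to be foreseen. The 9 are Gclm, G6pdx, Gsta3, Gstm5, Txnrd1, Srxn1, Prdx1, Sod1 and Nfe2l2. None of these 9 passed the test between the diets, which is too few genes to set apart from the 9.2% of all genes called. Of the 5 called members Cat, Cbr1, Sod2 and Gstm1 have no match in this window, and Gsr, whose promoter window was not analysed here, was not searched. Among the other pathway genes the antioxidant response core was found in 14 of 71 (19.7%). Of these Me1, Blvra, Hagh and Abcc4 were called lower, beside 4.77% of all genes tested. Only Me1 kept its call whichever single mouse was left out. Gstm7, Mgst1, Ggt1, Ggct, Gpr35, Msrb2, Pgd, Maff, Mafg and Mafk also have the core and were not called. Whether the core goes with a call was not tested. The core TGATGNAA, chosen after the values were seen, occurred in 4.51% of all genes, in 1 of 35 members (Slc7a11, with 2 matches whose first bases lie at -66 and -47 from the start) and in 1 of the 71 others (Chac1, at -193). The cores differ at the fourth base, so that no match begins both. A match describes letters in these windows and no binding. The windows reach from 250 bases before to 50 bases after the start. A missing match, the state of most genes, says nothing of elements outside them.

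Some cell type marker genes differed between the groups too, in data where 9.2% of all genes tested were called. The basal keratinocyte list summed to 3666 to 5379 CPM in AD and 6314 to 10992 CPM in HF + AD mice, with 3 of 7 genes called higher (Krt5, Krt14 and Krt15). The defining epidermal keratins of the labelled tissue, skin, were thus present in every mouse. Trp63, Col17a1, Itga6 and Itgb4 of the basal keratinocyte list were not called. More keratin RNA per cell and more cells of the type cannot be told apart here. The hair shaft list lay between 1561 and 3484 CPM in AD and between 2918 and 4792 CPM in HF + AD mice, with 3 of 7 higher (Krt31, Krt34 and Krt86). The sebocyte list lay between 2027 and 3313 CPM in AD and between 1481 and 2492 CPM in HF + AD mice, with Awat1 called higher and Scd1 lower, and it shares Mgst1 with the further pathway list. The skeletal muscle list lay between 974 and 2052 CPM in AD and between 598 and 1576 CPM in HF + AD mice, with Acta1 lower, and in the endothelial list Cdh5 and Kdr were higher. In the other 9 of 14 lists, which cover suprabasal and hyperproliferative epidermis, adipocytes, red blood cells, macrophages and dendritic cells, neutrophils, T cells, mast cells and dermal fibroblasts, no gene was called. The sums of the hair shaft, sebocyte, muscle and endothelial lists overlapped between the groups, and the called sebocyte genes went opposite ways. Lists without a call also differed in mean, in both directions. Macrophages and dendritic cells were at 36.4 CPM in AD and 73.5 CPM in HF + AD mice. The neutrophil list was at 945 CPM in AD and 333 CPM in HF + AD mice. This AD mean rests on AD mouse 1 (3698 CPM), with 202 to 356 CPM in the other AD mice. The HF + AD mice lay between 97.4 and 469 CPM. The median log2 fold change of the tested genes of this list was 1.34, opposite in direction to the means. The part of the cell make-up in the results for single genes was not tested.

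**Figure D5:**
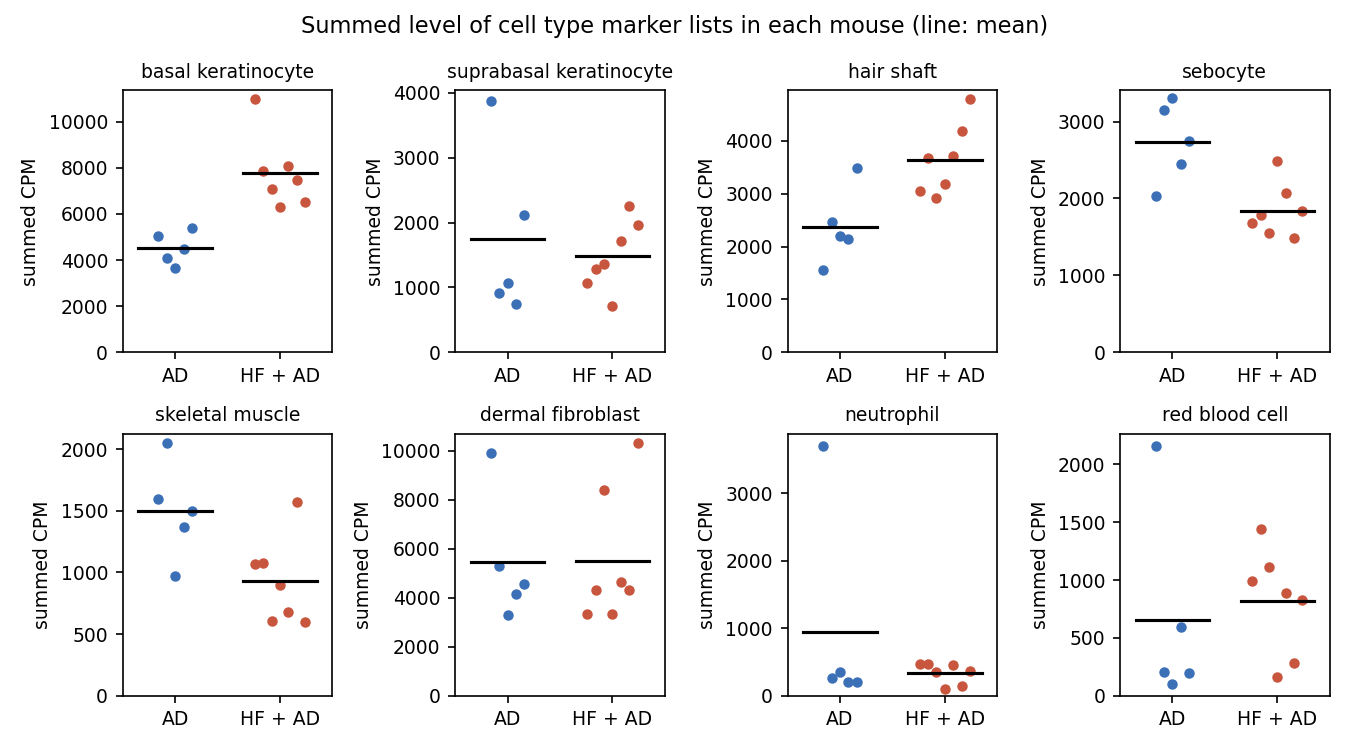
Summed CPM of 8 cell type marker lists in each AD mouse (left, 5 points) and HF + AD mouse (right, 7 points), with the group mean as a line and axes that start at 0. The basal keratinocyte sums do not overlap (3666 to 5379 against 6314 to 10992 CPM), and AD mouse 1 lies far above the other AD mice in the neutrophil, red blood cell, dermal fibroblast and suprabasal lists. The neutrophil list holds S100a8 and S100a9, which the hyperproliferative epidermis list also holds.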

How the data were processed

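The mRNA 3′ ends of skin from 5 AD and 7 HF + AD mice were sequenced (QuantSeq), and the counts deposited by the authors are whole reads for each gene symbol, not normalized. The submitters' processing notes name Bowtie2, bedtools and mm10, with no versions. The annotation, the strand setting and the handling of duplicate reads are not given in the sources used here, and no molecular identifiers are described. Groups came from the labels.

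Counts were fitted with edgeR 4.0.16 in R 4.3.3 (TMM, filterByExpr, quasi-likelihood test, condition only), with Benjamini-Hochberg adjustment over 14163 genes and a threshold of 0.05. CPM use TMM-scaled totals (factors 0.944 to 1.04). Single genes were compared by two-sided exact permutation over 792 splits on log2(CPM + 1), adjusted over the same genes. With 1 library per mouse, p-values set the difference between the groups against the spread between these mice. In simulated counts for this comparison (14253 genes tested), 93 of 98 genes changed by a log2 fold of 1 and 95 of 95 changed by 2 were called, and 7 unchanged ones. Every gene was simulated with a biological coefficient of variation of 0.2. In the real data the median coefficient over all genes, counting error included, was 38.3% in the AD and 24.2% in the HF + AD group. The simulation thus does not give the share of real changes that would be called here. Of 66 library pairs none was identical.

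The alternatives were DESeq2's size factors, library totals, no filter, at least 10 counts in every mouse, DESeq2 1.42.0, limma 3.58.1, a two-group test as the study used, leaving out each mouse, the replicate number as a block and a robust prior. The fit on 10 mice without that term was added after the data were seen. Other steps used Python 3.11.15, SciPy 1.17.1 and matplotlib 3.10.9, positions came from GENCODE M21 and promoters from RefSeq, both on GRCm38.

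The members and lists were chosen with earlier results of these data known. Named in full are members with an adjusted p under 0.05 or groups that do not overlap. Otherwise the text names the member with the smallest p per role, the 5 highest levels, Nfe2l2 and Keap1, up to 10 called genes of the other pathway list, and the 5 members most like that with the smallest p. Other names, among them Sod1, Slc7a11, Gstt3, Prdx3, Prdx5, Gpx3, Junb and Abcc4, were chosen after their values were seen.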

Additional observations from a re-analysis of the deposited data

Results flagged for a closer look

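Single mice that stood apart from the rest of their group were looked for in 104 groups (52 genes, AD and HF + AD), by the gap to the nearest other mouse as a share of the group's whole range. Chance alone would mark about 1 in 20 groups, and 9 were marked, 8 of them in the AD group. They were spread over all 5 AD mice, with 2 each in AD mice 1, 2 and 5.

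In the AD group Sod1 was lowest in mouse 2, with 160.0 CPM against 186 to 191 CPM and a gap of 0.845 of the range. Gstk1 was lowest in the same mouse, with 0.207 CPM (2 reads) against 6.76 to 11 CPM, a gap of 0.811. Gstm2 was lowest in mouse 3, with 5.25 CPM (52 reads) against 24.9 to 38.3 CPM, a gap of 0.773. Gpx4 was lowest in mouse 4, with 60.6 CPM against 82.7 to 93.1 CPM, a gap of 0.722.

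Highest in their group were Gpx1 in AD mouse 1 (286 CPM against 163 to 188, gap 0.741), Gsta4 in AD mouse 1 (283 CPM against 123 to 156, gap 0.720), Gss in AD mouse 5 (23.4 CPM against 20.1 to 20.9, gap 0.737) and Gstt3 in AD mouse 5 (21.2 CPM against 3.08 to 5.39, gap 0.735). In the HF + AD group Msrb1 was highest in mouse 1, with 102 CPM against 52.4 to 68.6 CPM and a gap of 0.595.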

How the results depend on the processing

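Cat was called in 21 and Cbr1 in 20 of 22 alternatives, Gsr in 9, Sod2 in 8 and Gstm1 in 8, and none of the 5 changed direction. Chac1 and Hmox2 were called in all 22. The unadjusted exact permutation p of the 6 members given in full stayed under 0.05 in 15 of 15 alternatives, a pseudocount of 0.1 among them. These members were chosen by their differences in the same data, so that such a result was to be foreseen. Adjusted over all genes, the permutation p with all mice was 0.0337 in Cat and 0.0497 in Gsr. It was 0.0556 in Sod2 and Cbr1, 0.0616 in Prdx2 and 0.0665 in Gstm1. With 5 members called in the main fit (1 higher, 4 lower), the number higher was 0 with DESeq2's size factors, with no filter and in the two-group test, and 2 with DESeq2's Wald test and limma, and the number lower was 2 with library totals alone and with no filter. Of the other pathway genes (6 higher, 5 lower), 3 were lower with library totals alone and 2 in the two-group test. Over all genes (627 higher, 676 lower), DESeq2's Wald test called 988 as higher and 957 as lower, the two-group test 433 as lower, and library totals alone 744 and 519. Leaving out 1 mouse at a time gave 0 to 3 members higher and 2 to 4 lower, 1 to 6 other pathway genes lower, and 308 to 775 genes higher and 331 to 766 lower over all genes.

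In the 22 alternatives signs turned in 9 members, none of them called, whose log2 fold changes with all mice lay between -0.24 (Gsta4) and 0.11 (Gstm2). Nfe2l2 was at 0.028 with library totals alone, 0.038 with limma and 0.037 in the two-group test. Over the omissions of 1 mouse the ranges were -0.15 to 0.14 in Nfe2l2, -0.16 to 0.55 in Slc7a11, -0.14 to 0.31 in Aldh3a1, -0.035 to 0.054 in Sod1, -0.19 to 0.011 in Gclc, -0.44 to 0.035 in Gsta4, -0.15 to 0.29 in Gstm2 and -0.17 to 0.018 in Txn1.

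Mice with the same number in both groups share only that number: the correlations of their deviations lay between -0.106 and 0.0724, and 1 of 5 matched its own number best. With the replicate number as a block (10 mice) 0 members were called higher and 0 lower, 2 other pathway genes were higher and 0 lower, and 86 and 97 genes were called over all genes, while Sod1 was at -0.047 and Nfe2l2 at 0.030. The same 10 mice without the block gave 0 members higher and 1 lower, 1 other pathway gene lower, and 246 and 227 genes over all genes, with Sod1 at -0.046, Aldh3a1 at -0.022 and Gss at 0.012. The cause of these shifts was not tested, beyond the smaller number of mice. Members with few reads carry a larger counting error. Gstk1 had 2 reads in AD mouse 2 (9746937 counts in total) and 67 reads in AD mouse 3 (10043631 counts). The cause of this low value was not tested.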
